A study of Rattus norvegicus with 39 samples.

Results

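The 10 genes described here are protein-coding genes of rat mitochondrial DNA, each a subunit of a respiratory chain complex or of ATP synthase. They were chosen by their identifiers in the count files and not by a threshold on their values, although earlier results of these data were known. They are 10 of the 26123 genes counted. Complex I is represented by ND1 (ENSRNOG00000030644), ND2 (ENSRNOG00000031033), ND4 (ENSRNOG00000029707) and ND5 (ENSRNOG00000029971). Complex III is represented by CYTB (ENSRNOG00000031766), and complex IV by COX1 (ENSRNOG00000034234), COX2 (ENSRNOG00000030371) and COX3 (ENSRNOG00000030700). ATP synthase, complex V, is represented by ATP6 (ENSRNOG00000031979) and ATP8 (ENSRNOG00000033299). All 10 passed the filter on low counts, as did 17230 genes in all, and the lowest count of any of them in any library was 645 reads.

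Cerebral cortex RNA of 78 male BN rats (substrain BN/SsNOlaHSD) was sequenced in 39 libraries, each made from the pooled RNA of 2 rats. The 39 libraries form 13 groups of 3 pools, and the pools are numbered across the whole study. Rats fed ad libitum (AL) and calorie-restricted rats (CR), which received 55% of the intake of controls, were studied at 6, 12 and 28 months (m) of age. Diets were assigned at 2 months of age. Rats fed ad libitum on a diet with alpha-lipoic acid at 1.5 g/kg (AL+LA) were studied at 12 and 28 m. The other 5 groups changed diet at 12 m and were studied at 28 m, and ">" marks the change. Of these, 3 began on CR (CR>CR+LA, CR>AL+LA, CR>AL) and 2 on unrestricted feeding (AL>CR and AL+LA>CR). A pool averages its rats, so the spread between 3 pools understates that between animals, and every p-value below measures the spread between pools only.

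Mitochondrial DNA is transcribed as long precursors that span many genes and are cut into the separate messengers, so these genes share much of their transcription. Their products are core subunits that are assembled with many subunits encoded in the nucleus: complexes I, III and IV pass electrons to oxygen and pump protons, and complex V uses the proton gradient to make ATP. Neurons depend on this supply for ion pumping and synaptic transmission. The reading frames of ATP8 and ATP6 overlap, and reads that fitted more than one gene were set aside by the counter as ambiguous. Nuclear copies of mitochondrial DNA are also known, so a level here is that of the reads the authors could place, and how many were lost was not tested. In bulk tissue, fewer cells of a type and less RNA per cell cannot be told apart.

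Several properties of the libraries differed between groups. Reads on genes ranged from 494091 (12 m AL pool 5) to 5966979 per library, and the 10 genes took 3.38 to 5.77% of them. Unaligned reads made up 27.5 to 36.1% in the 9 AL libraries and 34.1 to 43.2% in the other 30. Rn28s, the 28S ribosomal RNA left after depletion, is given like all levels here in CPM, the read count scaled by library size. It lay between 2927 and 6072 CPM in the 28 m AL pools, between 3014 and 4318 in the 12 m CR pools and between 30441 and 33984 in the 28 m CR pools. Of 11 listed markers of cerebellum, 6 had a name in the sources used (Car8, Cbln1, Fat2, Gabra6, Neurod1 and Zic2). Their summed level was 1312, 42.0 and 1270 CPM in 28 m AL pools 7, 8 and 9. It was 45.8, 431 and 1890 CPM in pools 4, 5 and 6 of 12 m AL and 46.8, 854 and 50.9 CPM in pools 1, 2 and 3 of 6 m AL, against 31.8 to 119 CPM in the other groups. Neuronal Gad1 and Syt1 (2 of 6 listed), astrocytic Aqp4 and Gfap (2 of 5), oligodendrocytic Mog (1 of 5), microglial Aif1 and Itgam (2 of 5) and Hba-a2 of blood (1 of 4) had a name and were detected, and none of 4 endothelial markers had one. Mog was at 89.5 to 100 CPM in 28 m AL and 113 to 196 CPM in the other 28 m groups, and Hba-a2, a haemoglobin chain, at 52.2 to 77.1 and 108 to 286 CPM. The summed astrocyte markers were 804 to 841 CPM in 28 m AL and 965 to 1611 CPM in the other 28 m groups. The summed microglial markers were 14.3 to 18.3 and 22.1 to 40.0 CPM, respectively. The summed neuronal markers overlapped, at 422 to 451 and 435 to 607 CPM.

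The highest and lowest group means of the summed level of the 10 genes differed 1.29-fold. The summed level ranged over the 39 libraries from 34475 CPM (AL+LA>CR pool 22) to 56309 CPM (6 m AL pool 3), with a median of 42839 CPM. Group means ran from 46941 ± 9549 CPM (6 m AL; SD, n = 3 here and below), 46552 ± 5191 (12 m AL) and 46397 ± 6366 (12 m AL+LA) at the top to 40299 ± 2309 in 12 m CR, 39629 ± 4334 in 28 m AL and 36460 ± 653 in CR>AL at the bottom. No gap between neighbours in this order was larger than the larger of their SDs, so the order of neighbouring groups was not resolved. Groups further apart could separate, as CR>AL (35856 to 37153 CPM) did from CR>AL+LA (43879 to 46879 CPM). The 28 m groups other than AL and CR>AL lay between 41237 ± 6308 (AL+LA>CR) and 46072 ± 7582 CPM (AL+LA). Gene by gene, the ratio of the highest to the lowest group mean ran from 1.33 for COX3 to 2.02 for ATP8. CPM is not corrected for gene length, so levels were compared between groups and not between genes.

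**Figure D1:**
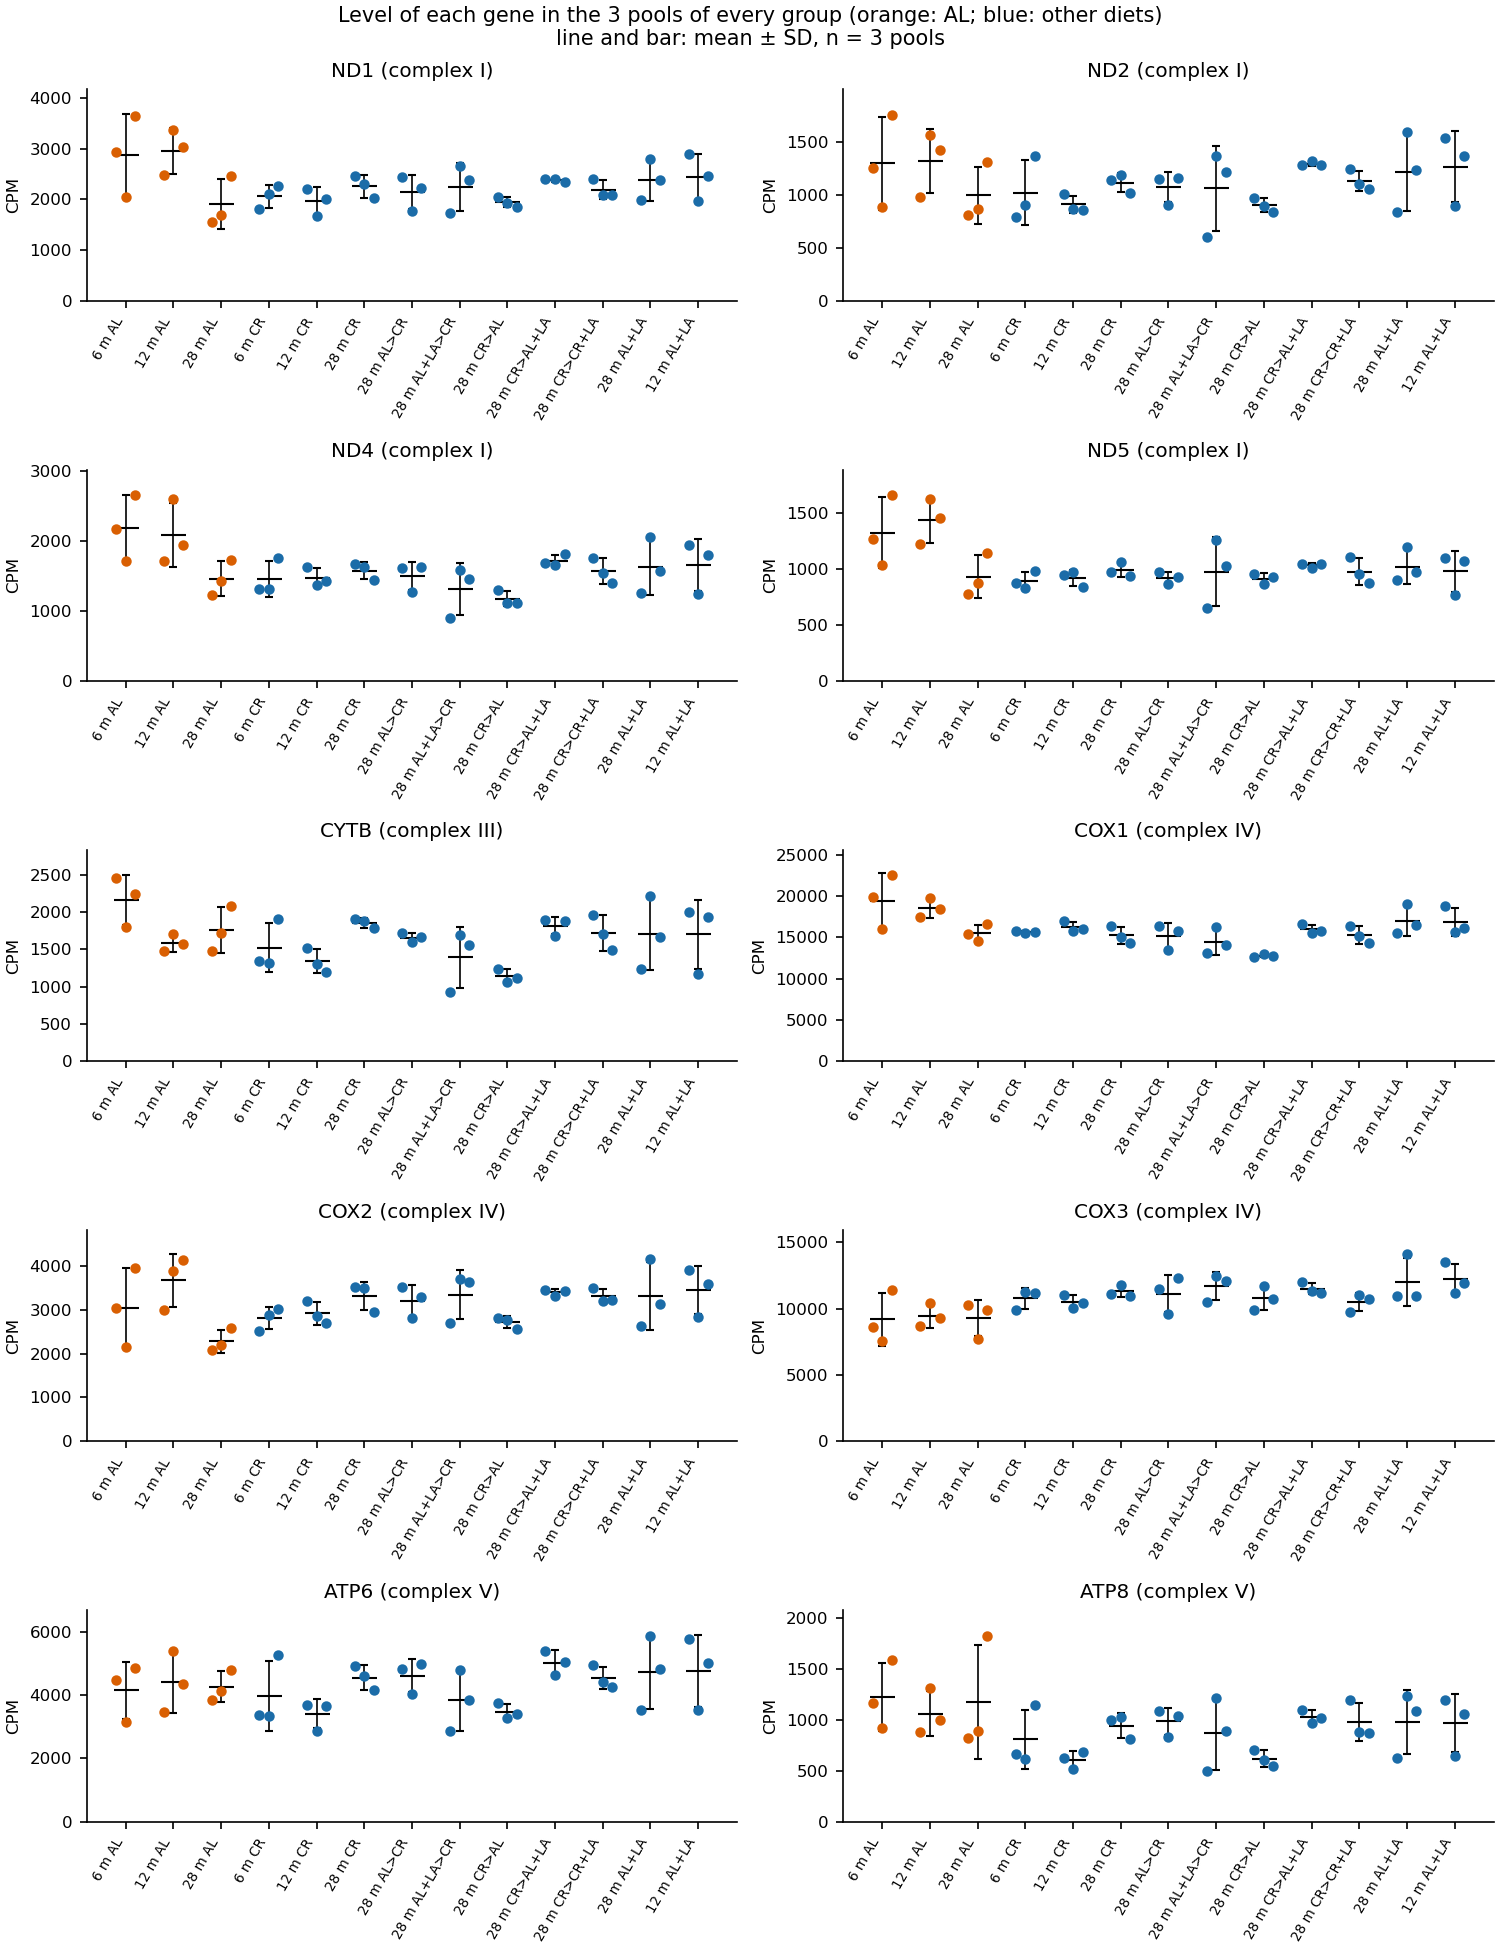
Level of each of the 10 genes (CPM after TMM scaling, linear axes from 0) in each of the 3 pools of the 13 groups, with a line at the group mean. COX2 is lowest in 28 m AL, at 2084 to 2580 CPM, and ATP8 in 28 m AL is spread from 819 to 1820 CPM.

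Of the 10 genes, few passed the test in any single comparison, and which ones passed depended on the comparison. Each test is the quasi-likelihood F test of edgeR, with p adjusted by the Benjamini-Hochberg method over 17230 genes and a threshold of 0.05, and in each comparison the share of all tested genes called by this test is given in brackets as background to its count. For counts at an unadjusted p under 0.05 the share of all tested genes under it is given in the same way. Counts from other tests, other settings or fits without a pool carry no such share. They are given to show how the main count moved and are not read as results about the 10 genes. Without the TMM factors, the median log2 fold change of all genes moved to between -0.26 (CR>AL+LA against AL) and 0.20 (12 m CR against AL), whereas with them it stayed within 0.02 of 0, so the values below are relative to the bulk of genes.

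For ageing under AL, 0 of the 10 genes passed between 6 and 12 m (0.0987% of all genes), 0 between 6 and 28 m (0.0987%) and 0 between 12 and 28 m (0.522%). At an unadjusted p under 0.05 there were 1 (4.62% of all genes), 3 (11.5%) and 4 (10.3%), respectively. The median log2 fold changes of the 10 genes were 0.03, -0.36 and -0.33. Under CR, 0 passed between 6 and 12 m (0.0290%), 0 between 6 and 28 m (0.0580%), and 1 was higher at 28 than at 12 m (0.273% of all genes in either direction, 0.238% higher). At an unadjusted p there were 1 (6.71%), 0 (4.90%) and 4 (6.74%), with medians of -0.06, 0.14 and 0.19. Under AL+LA, 0 passed between 12 and 28 m (0.0174%), 0 were under an unadjusted p of 0.05 (4.37%), and the median was -0.02. DESeq2 called 1 gene between 12 and 28 m under AL and 0 in the other ageing comparisons in which edgeR called 0, and edgeR's exact test called 0 in all of these. Leaving out pool 4 gave 1 gene between 12 and 28 m under AL.

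For diet against AL of the same age, 0 passed for CR at 6 m (2.25% of all genes), 3 were lower for CR at 12 m (2.17%, of which 1.41% lower) and 1 was higher for CR at 28 m (4.1%, of which 2.80% higher). The medians were -0.41, -0.43 and 0.10, and 5 (14% of all genes), 7 (14.3%) and 1 (17.5%) were under an unadjusted p of 0.05. For AL+LA, 0 passed at 12 m (3.15%) and 0 at 28 m (4.82%), with 2 (16.5%) and 2 (19%) under an unadjusted p of 0.05 and medians of -0.11 and 0.15. Of the groups that changed diet, AL>CR had 1 higher (4.86%, of which 2.86% higher), AL+LA>CR had 0 (4.83%), with 1 under an unadjusted p of 0.05 (18.5%), and CR>AL had 2 lower (6.91%, of which 2.73% lower). CR>AL+LA had 1 higher (5.82%, of which 3.44% higher) and CR>CR+LA had 1 higher (4.51%, of which 2.97% higher). The medians in these 5 groups were 0.07, -0.02, -0.21, 0.23 and 0.10. A count of 1 is 10% of the 10 genes, the smallest share above 0 that they can show. Where edgeR's quasi-likelihood test called 0, DESeq2 called 1 each for CR at 6 m, AL+LA at 12 m, AL+LA at 28 m and AL+LA>CR, and edgeR's exact test called 1 for AL+LA at 12 m and 0 in the other 3. Leaving out pool 4 or 6 gave 1 gene for AL+LA at 12 m, leaving out pool 34 gave 1 for AL+LA at 28 m, and leaving out pool 22 gave 1 for AL+LA>CR. The 7 comparisons at 28 m share the same 3 AL pools, and so their results are not independent of each other.

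**Figure D2:**
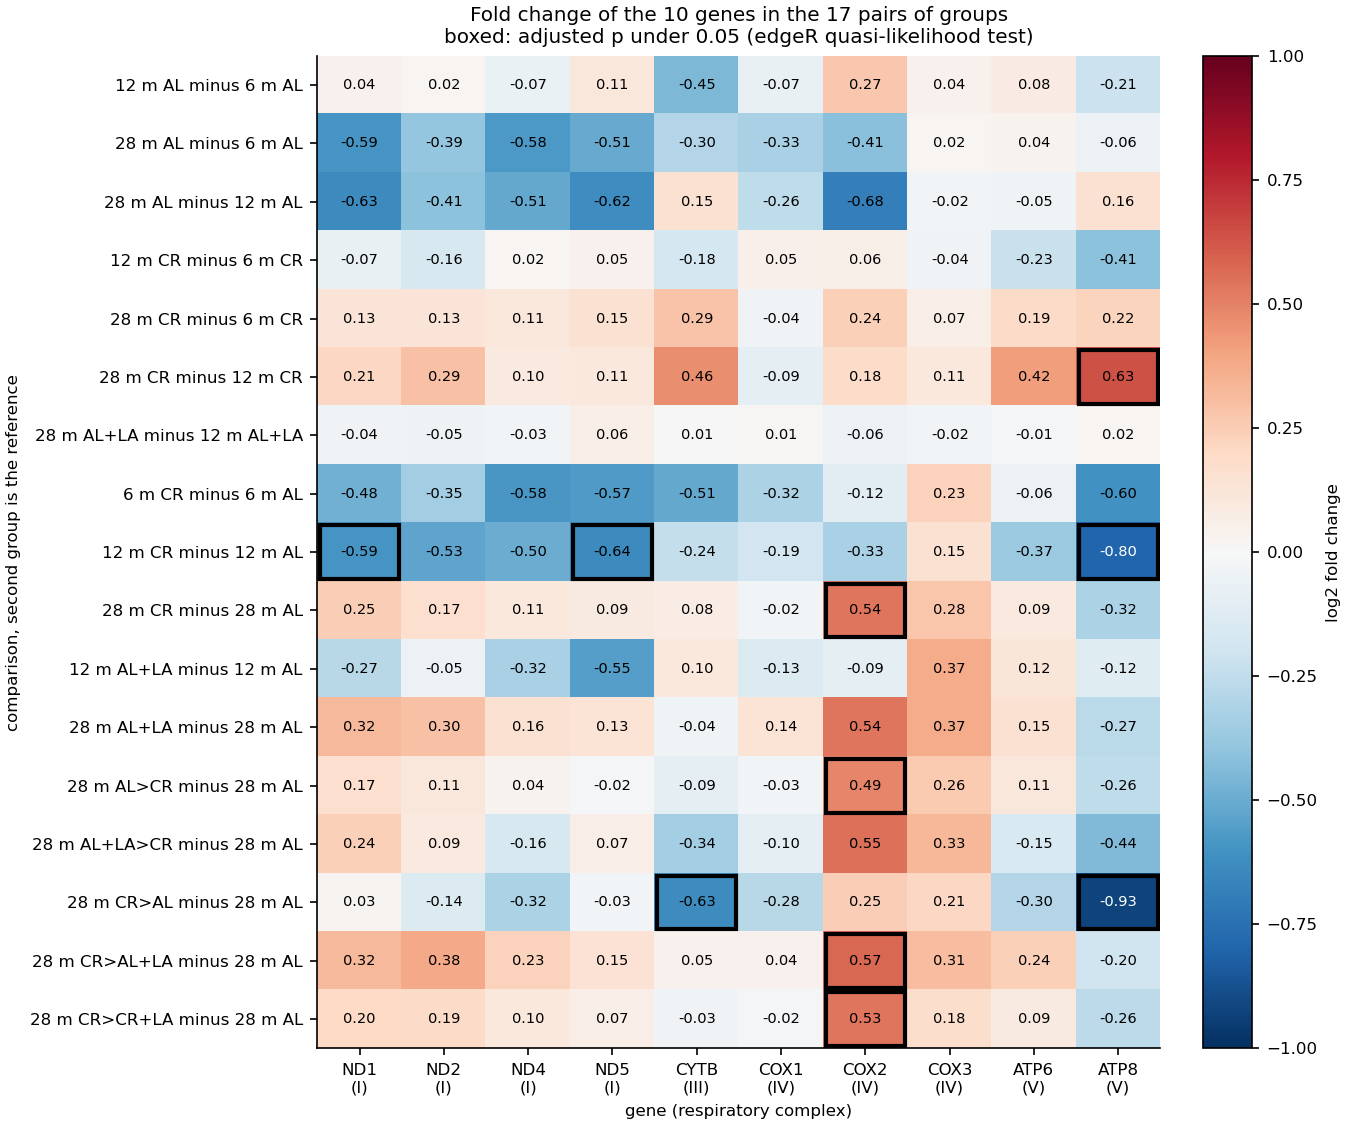
Log2 fold changes of the 10 genes in the 7 ageing and 10 diet comparisons, with those past the threshold marked. COX2 lies between 0.49 (AL>CR) and 0.57 (CR>AL+LA) in the 4 comparisons with 28 m AL in which it passed, and ATP8 ranges from -0.93 (CR>AL against AL) to 0.63 (28 m CR against 12 m CR).

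Of the complex I genes, ND1 and ND5 fell in CR against AL at 12 m by edgeR's test, but neither passed once the cerebellar markers were a covariate. ND1, a membrane subunit of complex I, was at 2478, 3362 and 3034 CPM in 12 m AL pools 4, 5 and 6 and at 2212, 1664 and 2000 CPM in 12 m CR pools 13, 14 and 15. Its log2 fold change was -0.59 (SE 0.16, edgeR adjusted p = 0.0474), from 2958 ± 447 to 1959 ± 276 CPM. The pools of the groups did not overlap, but the adjusted p was 0.161 without pool 5, 0.0552 without pool 13, 0.350 without pool 14 and 0.107 without pool 15. It was also 0.139 without TMM factors (log2 fold change -0.41), 0.0676 when every library had to hold 10 counts and 0.119 (log2 fold change -0.58) in one fit of all groups with the cerebellar list as a covariate.

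ND5, another proton-pumping membrane subunit of complex I, was at 1227, 1628 and 1457 CPM in 12 m AL and at 949, 976 and 843 CPM in 12 m CR. All 3 CR pools lay below all 3 AL pools, and the log2 fold change was -0.64 (SE 0.15, edgeR adjusted p = 0.0241), from 1438 ± 201 to 922 ± 70.5 CPM. The adjusted p was 0.0975 without pool 5, 0.0661 without pool 13, 0.0964 without pool 14 and 0.126 without pool 15, 0.0828 without TMM factors (log2 fold change -0.46) and 0.0608 (log2 fold change -0.64) with the cerebellar covariate. In the same comparison 6 of 6 cerebellar markers were called lower (median log2 fold change -3.02), 2 of 2 astrocyte markers were called lower (median -1.01) and 1 of 2 neuronal markers was called higher. The summed astrocyte markers were 1501 to 1740 CPM in 12 m AL and 825 to 916 CPM in 12 m CR, and their part in these results was not tested. Against 12 m AL, AL+LA also had a separate range of ND5, with a log2 fold change of -0.55 that missed the threshold (edgeR adjusted p = 0.0600).

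ND4, also a proton-pumping membrane subunit, had AL means of 2175 ± 471, 2082 ± 460 and 1460 ± 249 CPM at 6, 12 and 28 m. The CR means were 1454 ± 257, 1471 ± 138 and 1574 ± 125 CPM at the same ages. No pair of groups passed for ND4, and its log2 fold changes for CR against AL were -0.58 at 6 m (edgeR adjusted p = 0.199) and -0.50 at 12 m (edgeR adjusted p = 0.122). The lowest group was CR>AL, with pools at 1292, 1117 and 1108 CPM. ND2, the remaining membrane subunit described, passed in no comparison, and its smallest adjusted p was 0.107, for CR against AL at 12 m (edgeR, log2 fold change -0.53).

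CYTB, the cytochrome b subunit that carries both quinone-binding sites of complex III, fell in CR>AL against 28 m AL. It was at 1483, 1714 and 2086 CPM in 28 m AL pools 7, 8 and 9 and at 1242, 1060 and 1109 CPM in CR>AL pools 25, 26 and 27. All 3 CR>AL pools lay below the AL pools, with a log2 fold change of -0.63 (SE 0.14, edgeR adjusted p = 0.0100), from 1761 ± 304 to 1137 ± 94.2 CPM. The adjusted p was 0.0577 without pool 9, 0.0740 without pool 26 and 0.0831 (log2 fold change -0.64) when all groups were fitted together with the cerebellar markers as a covariate. Across groups CYTB was highest in 6 m AL at 2163 ± 335 CPM, and CR>AL was the lowest. Between 12 and 28 m under CR it went from 1345 ± 163 to 1855 ± 65.2 CPM with no overlap, but this missed the threshold (log2 fold change 0.46, edgeR adjusted p = 0.0846).

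COX2, the complex IV subunit that accepts electrons from cytochrome c, was lowest in 28 m AL of all 13 groups. The 28 m AL pools were at 2084, 2188 and 2580 CPM, and the pools of lifelong CR at 3520, 3491 and 2945 CPM. The values were 3525, 2807 and 3288 CPM in AL>CR, 3446, 3313 and 3427 CPM in CR>AL+LA and 3490, 3199 and 3230 CPM in CR>CR+LA. No pool of these 4 groups overlapped with the AL pools.

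COX2 rose against 28 m AL (2284 ± 261 CPM) in each of these 4 groups by edgeR's test. The log2 fold change was 0.54 in CR (SE 0.13, edgeR adjusted p = 0.0304, 3318 ± 324 CPM) and 0.49 in AL>CR (SE 0.14, edgeR adjusted p = 0.0400, 3206 ± 366 CPM). It was 0.57 in CR>AL+LA (SE 0.12, edgeR adjusted p = 0.00449, 3395 ± 71.5 CPM) and 0.53 in CR>CR+LA (SE 0.13, edgeR adjusted p = 0.0297, 3306 ± 160 CPM). The change in CR>AL+LA passed when any 1 of its 6 pools was left out, but not with the cerebellar covariate (log2 fold change 0.57, edgeR adjusted p = 0.0679) or without TMM factors (0.32, edgeR adjusted p = 0.0791). The other 3 changes depended on single pools as well. The adjusted p for CR was 0.0990 without pool 7, 0.104 without pool 16, 0.125 without pool 17 and 0.112 without pool 18. That for AL>CR was 0.123 without pool 7, 0.238 without pool 19, 0.0535 without pool 20 and 0.139 without pool 21, and that for CR>CR+LA was 0.123 without pool 7, 0.105 without pool 31, 0.0767 without pool 32 and 0.114 without pool 33.

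In the other 28 m groups COX2 was at 2636, 4162 and 3139 CPM (AL+LA), 2701, 3698 and 3645 CPM (AL+LA>CR) and 2817, 2765 and 2567 CPM (CR>AL). All pools of AL+LA and AL+LA>CR lay above those of AL, but their log2 fold changes of 0.54 and 0.55 missed the threshold (edgeR adjusted p = 0.0660 and 0.0768). In AL itself COX2 went from 3670 ± 595 CPM at 12 m to 2284 ± 261 CPM at 28 m, with separate pools, and this missed the threshold as well (log2 fold change -0.68, edgeR adjusted p = 0.123). The cerebellar markers were called lower against AL in all 4 of the comparisons COX2 passed, 6 of 6 in 3 of them and 5 of 6 in CR>AL+LA. When all groups were fitted together and the cerebellar list was added as a covariate, the log2 fold change of COX2 was 0.54 in CR (edgeR adjusted p = 0.148), 0.49 in AL>CR (0.195) and 0.54 in CR>CR+LA (0.157). Without TMM factors it was 0.30 in CR (edgeR adjusted p = 0.179), 0.27 in AL>CR (0.254) and 0.29 in CR>CR+LA (0.186). With at least 10 counts in every library the adjusted p was 0.0506 in CR and 0.0648 in AL>CR, and with all groups in one fit without the covariate it was 0.0792 in AL>CR. COX2 therefore passed in none of the 4 groups with the covariate and in none without TMM factors. Against AL, Mog, Hba-a2 and Gfap (1 of 2 astrocyte markers) were called higher in all 7 comparisons at 28 m, and their part was not tested. In CR against AL at 28 m, Rn28s had a log2 fold change of 2.71. Rn28s was at 2927 to 6072 CPM in 28 m AL and 30441 to 33984 CPM in CR. It was at 26290 to 32550 CPM in AL>CR, 32038 to 34152 in CR>AL+LA and 30536 to 35841 in CR>CR+LA. In the remaining groups it was at 8529 to 34778 CPM (AL+LA), 3917 to 37197 (AL+LA>CR) and 15850 to 24260 (CR>AL). The part of Rn28s in the COX2 results was not tested.

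COX1, the catalytic subunit that holds the oxygen-reducing centre of complex IV, passed in no pair of groups. It was highest in 6 m AL (19902, 15996 and 22550 CPM) and lowest in CR>AL (12654, 12964 and 12781 CPM). COX3, the third core subunit of complex IV, passed in no pair either. Its lowest means were those of the 3 AL groups, with 9183 ± 1980 CPM at 6 m, 9310 ± 1376 at 28 m and 9467 ± 897 at 12 m, against 10494 CPM or more in every other group.

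ATP8, a small membrane subunit of ATP synthase, passed in 3 comparisons. The 12 m AL pools were at 877, 1311 and 995 CPM, those of 12 m CR at 625, 515 and 683 CPM, and those of 28 m CR at 996, 1028 and 807 CPM. The 12 m CR pools lay below all those of both other groups. ATP8 fell in CR against AL at 12 m, with a log2 fold change of -0.80 (SE 0.17, edgeR adjusted p = 0.00989), from 1061 ± 225 to 608 ± 85.2 CPM. It rose in CR from 12 to 28 m, to 944 ± 119 CPM, with a log2 fold change of 0.63 (SE 0.12, edgeR adjusted p = 0.0212). The adjusted p of the former was 0.0756 without pool 5, 0.115 without pool 14, 0.0829 with all groups in one fit and 0.226 with the cerebellar covariate added (log2 fold change -0.70). That of the latter was 0.204 without pool 14, 0.108 without pool 17, 0.0637 without pool 18, 0.0581 when every library had to hold 10 counts and 0.822 with all groups in one fit. Without TMM factors the latter had a log2 fold change of 0.39 (edgeR adjusted p = 0.0955).

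ATP8 also fell in CR>AL against 28 m AL, from 1177 ± 558 to 618 ± 82.8 CPM. The AL pools were at 819, 893 and 1820 CPM and the CR>AL pools at 708, 602 and 545 CPM, so the groups did not overlap, but pool 9 stood far above the others. The log2 fold change was -0.93 (SE 0.22, edgeR adjusted p = 0.0134), and it was -0.47 (edgeR adjusted p = 0.0837) without pool 9. The adjusted p was 0.0571 without pool 26, 0.0668 without pool 27, 0.145 with DESeq2 and 0.130 with the cerebellar covariate (log2 fold change -0.83). ATP6, the proton-channel subunit of ATP synthase, passed in no pair of groups. Its lowest groups were 12 m CR (3414 ± 462 CPM) and CR>AL (3479 ± 255 CPM), which were also the lowest for ATP8.

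Residual ribosomal RNA moved in the direction of ATP8 in the comparisons with 12 m CR that ATP8 passed, but not in CR>AL. Rn28s had a log2 fold change of 3.19 between 12 and 28 m under CR and of -2.81 for CR against AL at 12 m. In CR>AL against 28 m AL it moved in the opposite direction, with a log2 fold change of 2.10 where that of ATP8 was -0.93. Outside AL, 7 of 30 libraries had Rn28s under 10000 CPM, namely 6 m CR pools 10 and 11, 12 m CR pools 13, 14 and 15, AL+LA>CR pool 22 and 28 m AL+LA pool 34. ATP8 ranged from 501 to 683 CPM (median 621) in these and from 545 to 1231 CPM (median 1017) in the other 23. ATP6 ranged from 2866 to 3703 CPM and from 3267 to 5883 CPM, respectively. The median was also lower in the 7 libraries for ND1 (1978 against 2341 CPM), ND2 (861 against 1189) and ND4 (1307 against 1604). The same held for ND5 (873 against 976), CYTB (1309 against 1706), COX2 (2701 against 3313) and COX3 (10500 against 11208). COX1 differed (15804 against 15715 CPM). Lower levels in these libraries were therefore not particular to ATP8 and ATP6. The 28 m AL pools had low Rn28s too, with ATP8 at 819 to 1820 CPM, and CR>AL had low ATP8 with Rn28s at 15850 to 24260 CPM. The level of 10000 CPM was not part of the planned comparisons. The 12 m CR pools in this split also enter the comparisons with 12 m CR, so the split is not independent of them. The part of Rn28s in these results was not tested.

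**Figure D3:**
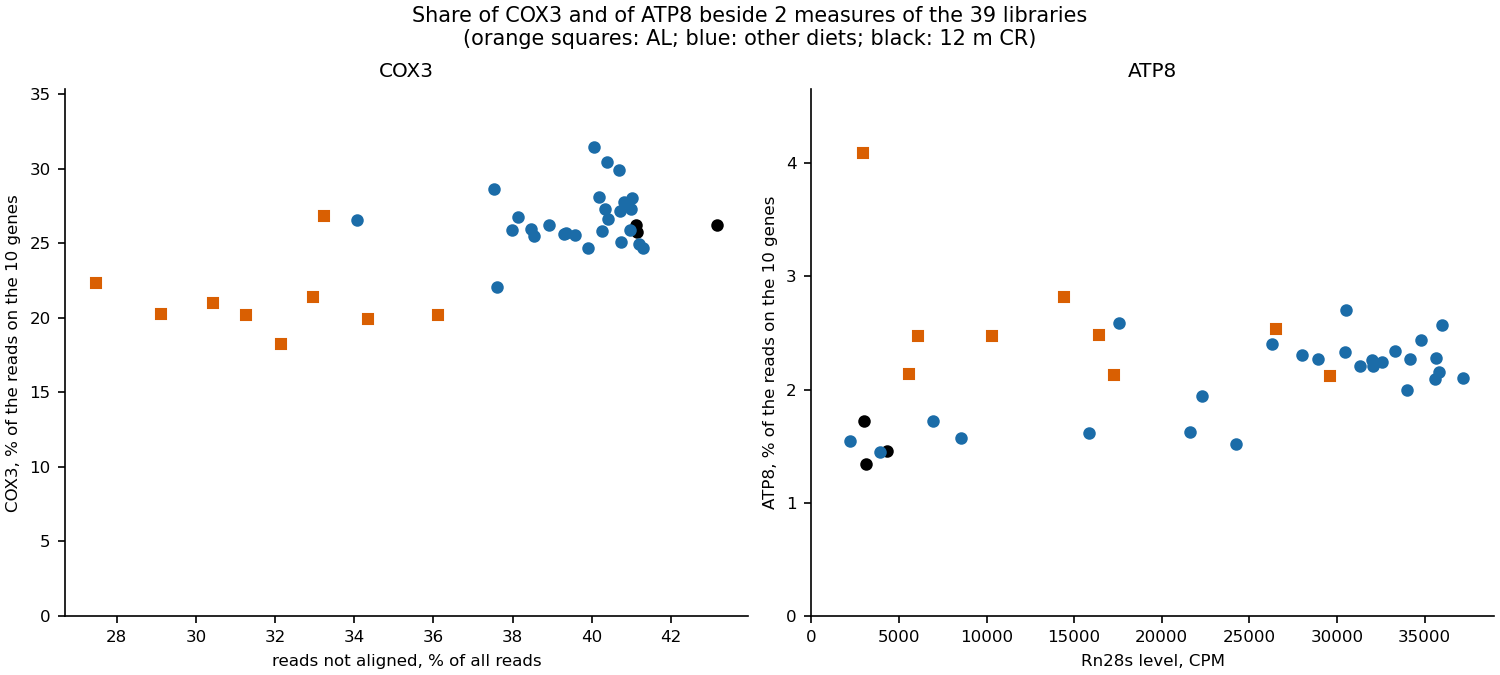
Share of the reads on the 10 genes (y axes, %) taken by COX3 against unaligned reads (left, % of all reads) and by ATP8 against the Rn28s level (right, CPM), 1 point per library, with AL as orange squares, 12 m CR in black and other groups in blue. Of the 30 libraries outside AL, the 7 with Rn28s under 10000 CPM had ATP8 shares of 1.34 to 1.73% and the other 23 had 1.52 to 2.70%.

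No gene passed a test of whether the change with age differed between AL and CR. In the test of the interaction between diet and age, 0 of 10 passed for 28 against 6 m (0.0116% of all genes), with 5 under an unadjusted p of 0.05 (8.35%) and a median of 0.55. For 28 against 12 m, 0 of 10 passed (0.389%), with 6 under an unadjusted p of 0.05 (8.86%) and a median of 0.54. All 10 values were above 0 in both, and without TMM factors 8 and 7 were above 0 while 10 of 10 stayed above the median of all genes, which was then -0.30 and -0.44. The smallest adjusted p was 0.0642, for COX2 from 12 to 28 m (edgeR, 0.87). DESeq2 called 0 and 1 gene, and leaving out pool 4 gave 1 and leaving out pool 9 gave 2 genes for 28 against 12 m.

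Any difference among all 13 groups was called for 4 of the 10 genes, against 14% of all genes. These were ND4 (edgeR adjusted p = 0.0200), ND5 (0.0263), CYTB (0.0332) and COX1 (0.0397). With 1 pool left out at a time, ND4 passed in 38 of 39 fits, ND5 in 36, CYTB in 32 and COX1 in 21. Of 8 other settings, COX1 passed in 5, and ND4, ND5 and CYTB each passed in 8. The number of genes called was 2 when pool 1, 5, 6, 14, 15, 25, 26 or 27 was left out and 1 without pool 3. Among the 10 groups without AL, 0 of the 10 genes passed (0.540% of all genes), with 3 under an unadjusted p of 0.05 by edgeR (7.60%) and 1 called by DESeq2. Among the 7 groups without AL at 28 m, 0 passed (0.0754%), with 5 under an unadjusted p of 0.05 by edgeR (4.75%) and 0 called by DESeq2.

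For some genes, the share of the reads on the 10 genes set the AL libraries apart more clearly than the summed level did. COX3 took 18.3 to 20.2% of these reads in 6 m AL against 25.1 to 28.1% in 6 m CR, and 19.9 to 21.0% in 12 m AL against 25.6 to 28.0% in the 6 other libraries at 12 m. At 28 m the ranges overlapped, at 21.4 to 26.8% in AL and 22.1 to 31.4% in the 21 other libraries. The shares of ND1, ND4 and ND5 were higher in AL at 6 and 12 m without overlap and overlapped at 28 m. COX2 took 5.44 to 6.06% in 28 m AL and 6.68 to 8.62% in the 21 other libraries at 28 m, but its shares overlapped at 6 and 12 m. The shares of ND2, CYTB, COX1, ATP6 and ATP8 overlapped between AL and the other libraries at every age. Shares of this kind do not depend on library size or TMM, but a share moves when any other gene does. The AL libraries also had fewer unaligned reads, and the part of this in the shares was not tested.

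**Figure D4:**
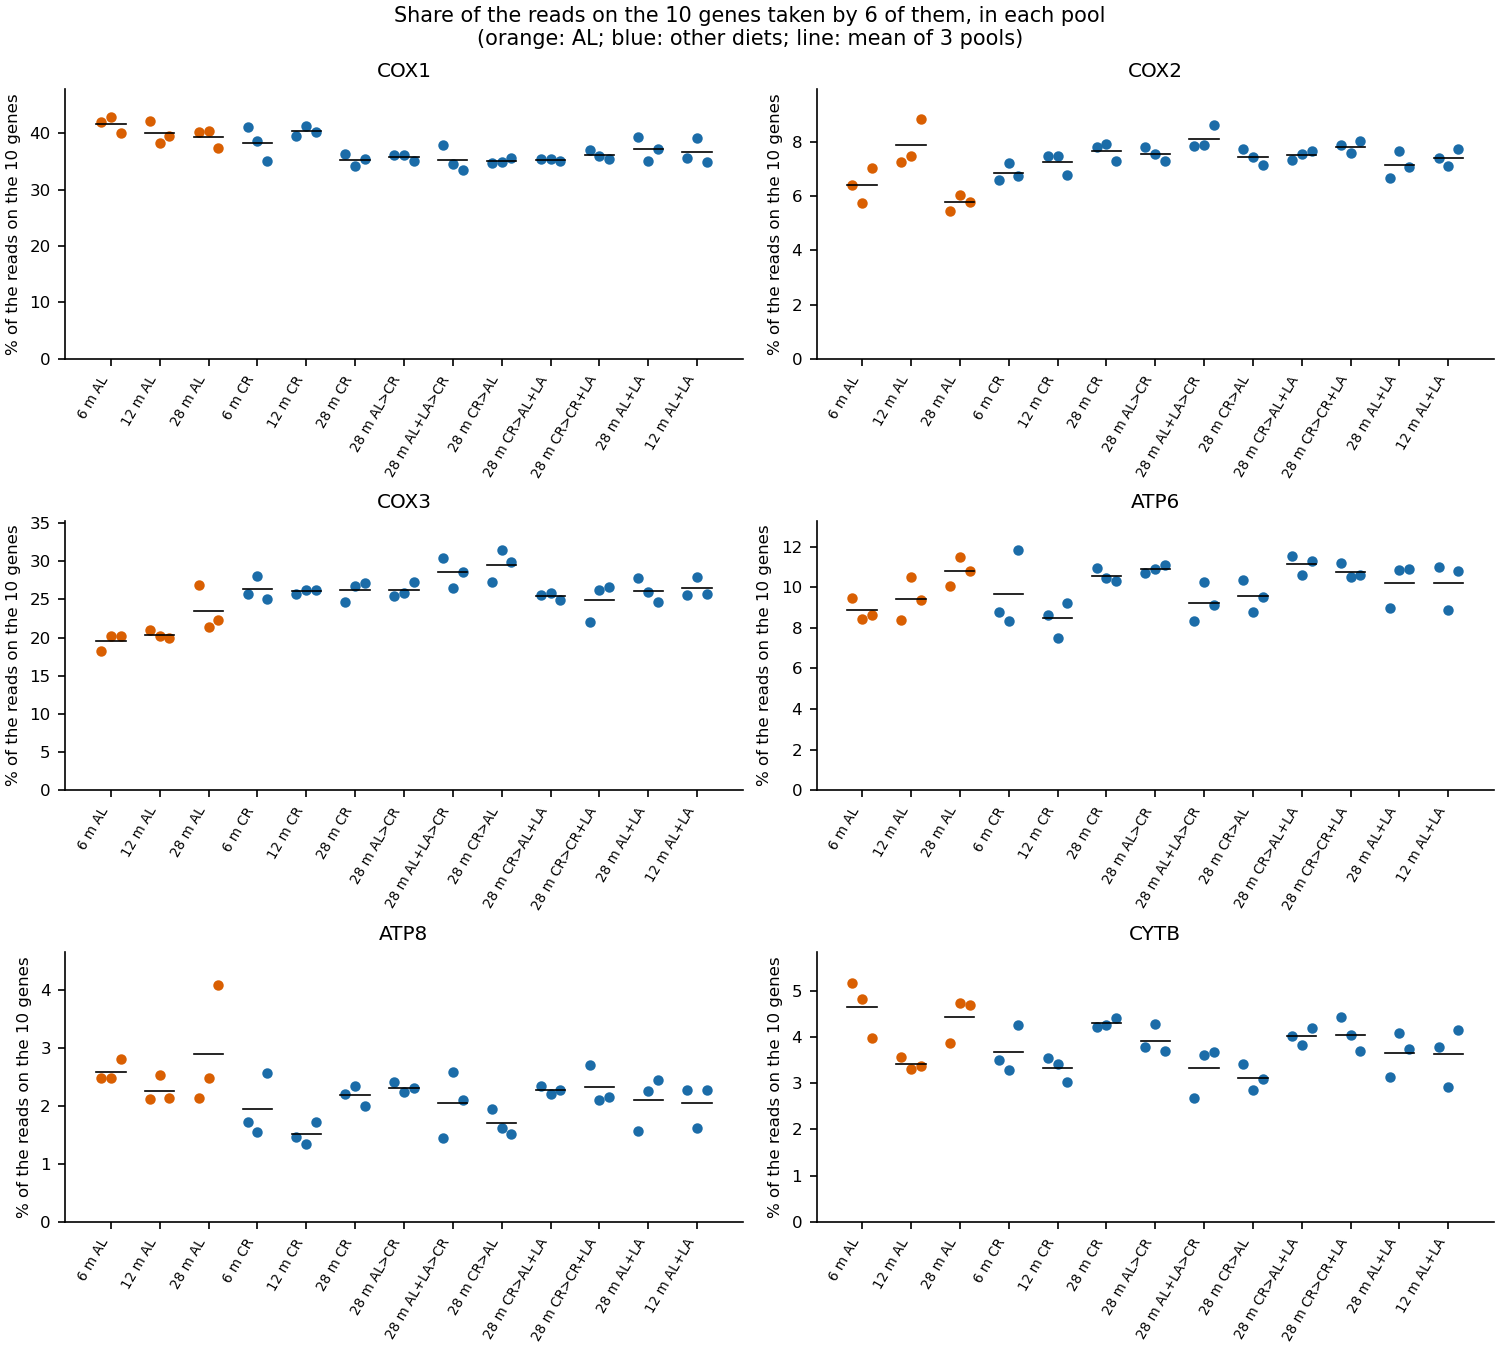
Share of the reads on the 10 genes taken by COX1, COX2, COX3, ATP6, ATP8 and CYTB (%, axes from 0) in each pool, AL in orange and other diets in blue, with a line at the mean of 3 pools. COX3 in 6 and 12 m AL, at 18.3 to 21.0%, lies below the other groups, and ATP8 reaches 4.09% in 28 m AL pool 9.

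Most of the 10 genes varied together over the 39 libraries. Pearson's r of log2 CPM over the 45 pairs of genes had a median of 0.68, from 0.01 (ND5 and COX3) to 0.89 (ND1 and ND2), as a description of libraries that share groups and scaling. COX3 stood apart with a median r of 0.13 with the other 9. After each group's mean was taken off, the median r was 0.86 and the lowest 0.45, so within groups the pools that were high for one gene tended to be high for the rest. Of 1664 named genes outside mitochondrial DNA, those most like the summed level over the 39 libraries were Srsf7 (r = 0.60), Anp32b (0.59), Myo6 (0.57), Pabpc1 (0.56) and Epb4.1l2 (0.53). The most opposite were Trappc3 (-0.66), Poll (-0.65), Rpl32-ps1 (-0.59), Txndc15 (-0.57) and Pqlc1 (-0.56).

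ND3 (ENSRNOG00000033615), a further complex I gene of mitochondrial DNA and not among the 10, was also lowest in 28 m AL, at 438 ± 88.7 CPM. It rose against AL in AL+LA (log2 fold change 0.55, edgeR adjusted p = 0.0341), AL+LA>CR (0.69, 0.0317) and CR>AL+LA (0.56, 0.0140). Their levels were 642 ± 29.9, 707 ± 187 and 646 ± 9.40 CPM, respectively. The other 28 m groups were at 619 ± 30.9 (CR), 587 ± 50.2 (AL>CR), 608 ± 36.4 (CR>AL) and 584 ± 14.5 CPM (CR>CR+LA). All pools of CR, CR>AL and CR>CR+LA lay above the highest 28 m AL pool (538 CPM), and AL>CR overlapped with it (529 to 617 CPM). Higher ND3 was therefore not confined to the groups that passed. In AL+LA>CR the range was 574 to 922 CPM, with pool 23 the highest and a median of 626 CPM. The alternative settings and the leaving out of pools were examined for the 10 genes and not for ND3.

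Nuclear genes of the same complexes were called higher against AL in many diet comparisons, in which few of the 10 mitochondrial genes were. The names of these nuclear genes came from lists of genes that the study largely chose on these samples, so their counts are not independent evidence of a direction. Of 36 listed complex I genes 20 were named and tested, of complex III 6 identifiers of 9 listed genes, of complex IV 9 of 11, of complex V 5 of 15. Of complex II Sdhb alone was named (1 of 4), and of 31 genes of mitochondrial transcription and RNA Slirp alone.

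In CR against AL at 6 m, 7, 3, 7 and 3 nuclear genes of complexes I, III, IV and V rose, against 1.17% of all genes called higher. Their medians were 0.76, 0.95, 1.05 and 1.06, and the median of the 10 mitochondrial genes was -0.41. At 12 m 1, 3, 2 and 0 rose (0.760% of all genes higher), with medians of 0.45, 1.0, 0.55 and 0.56. At 28 m 11, 5, 7 and 3 rose (2.80%), with medians of 0.68, 0.82, 0.74 and 0.69. The examples with the smallest adjusted p in each list at 28 m were Ndufa3 (1.98, edgeR adjusted p = 5.86e-05), Uqcrb (1.32, 0.000199), Cox6a1 (0.88, 0.000992) and Atp5me (1.33, 0.00123), all accessory subunits. Uqcrb had 2 identifiers in the complex III list (ENSRNOG00000024967 and ENSRNOG00000032204), and the value is that of the one with the smaller adjusted p. Sdhb, the iron-sulphur subunit of complex II, rose in CR>AL (0.56), and Slirp, which stabilises mitochondrial messengers, rose in AL+LA at 12 m (1.04). Atp5f1c, the gamma subunit of ATP synthase, fell in AL+LA>CR (-0.67) and CR>AL (-0.89). The difference between nuclear and mitochondrial genes was not tested, and the AL libraries with cerebellar markers enter all of these comparisons.

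**Figure D5:**
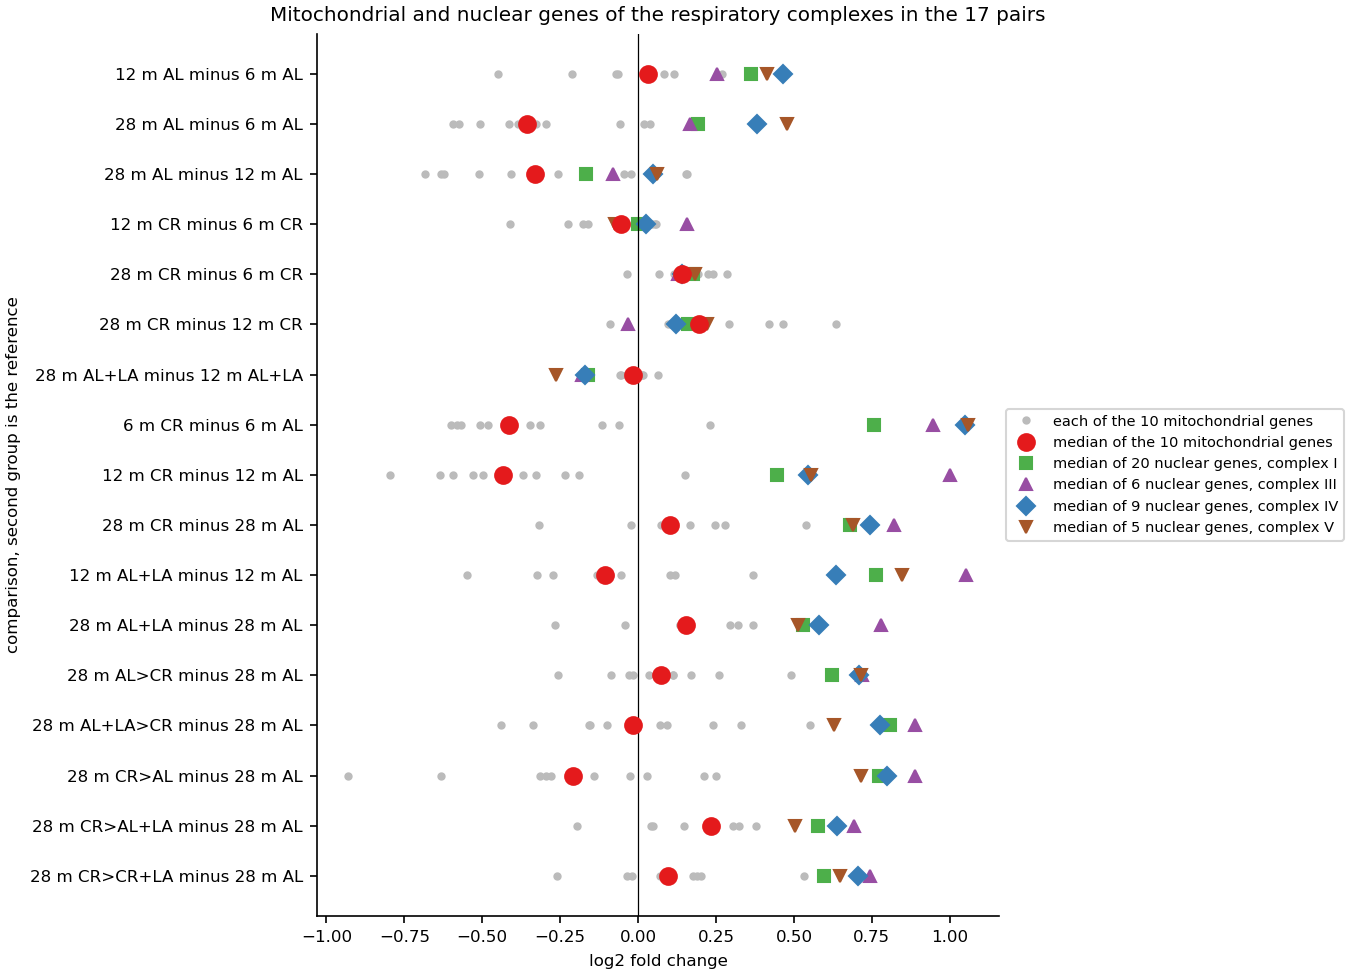
Log2 fold change (x axis) of each of the 10 mitochondrial genes (grey), their median (red) and the medians of the named nuclear genes of complexes I, III, IV and V (other symbols) in the 17 pairs of groups. At 6 m the mitochondrial median for CR against AL is -0.41 and the nuclear medians are 0.76 to 1.06.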

How the data were processed

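Male rat cerebral cortex RNA, pooled by 2 animals, was depleted of ribosomal RNA and sequenced on a SOLiD instrument by the authors, who aligned reads with Bowtie to the rn5 build and counted them per Ensembl gene with HTSeq. Tool versions and the strand setting are not given in the sources used here. The deposited files hold raw counts for 26123 genes per library, and groups come from the sample titles. Rows for reads that were unaligned, ambiguous or on no gene were left out of library sizes. Here genes with at least 1 CPM in at least 3 of 39 libraries (17230) were tested with the quasi-likelihood test of edgeR 4.0.16 (R 4.3.3), with TMM factors over the 39 libraries, on the libraries of the groups compared. P-values were adjusted by the Benjamini-Hochberg method (threshold 0.05). The script was tested on simulated data. Over all genes, the 39 pairs of pools within groups differed by more than counting noise (chi-square per degree of freedom 3.02 to 47.6), so none was a copy. All 10 genes are named, as are nuclear genes with the smallest adjusted p of their list and the 5 genes most and least like the summed level. Gene names came from tables of the study (1667 identifiers). The alternatives were DESeq2 1.42.0, edgeR's exact test, other scalings and filters, one fit of all groups, a cerebellar covariate and leaving out single pools. The genes and lists were chosen with earlier results of these data known. Lengths, positions and sequences of the 10 genes were not used here.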

Additional observations from a re-analysis of the deposited data

How the results depend on the processing

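The 10 log2 fold changes of the 10 genes that passed kept their sign under the alternatives run. Genes that did not pass changed sign in places: without TMM the number above 0 went from 8 to 3 for CR at 28 m, from 9 to 4 for CR>AL+LA and from 9 to 4 for CR from 12 to 28 m, while 8, 9 and 9 lay above the median of all genes. No paired analysis was possible because the groups compared share no replicate number. The number of the 10 genes called changed as follows, and the cause was not tested. The share of all genes called under each setting is not given beside these counts. A higher count may therefore come with more calls among all genes, and it is not read as a result about the 10 genes. With DESeq2 it was 1 for AL from 12 to 28 m, CR at 6 m, AL+LA at 12 m, AL+LA at 28 m, AL+LA>CR, CR>AL, the 10 groups without AL and the interaction of 28 against 12 m, and 2 for CR from 12 to 28 m. With RLE factors it was 1 for AL+LA at 12 m and 1 for that interaction, and with edgeR's exact test 1 for AL+LA at 12 m. With all 13 groups in one fit it was 0 for AL>CR and for CR from 12 to 28 m, 1 for AL from 6 to 28 m, AL+LA at 12 m, AL+LA at 28 m and AL+LA>CR, 2 for CR at 6 m and 3 for AL from 12 to 28 m. Adding the cerebellar covariate gave 0 for CR>CR+LA, CR>AL+LA, CR>AL, AL>CR and CR at 28 m and 3 for AL from 12 to 28 m. In the comparisons with AL of 6 or 12 m, for which this covariate was chosen after seeing the data, it gave 0 for CR at 12 m and 2 for CR at 6 m. With at least 10 counts in every library (7008 genes) it was 0 for AL>CR, CR at 28 m and CR from 12 to 28 m. With no filter (22949 genes) it was 1 for AL+LA at 12 m, AL+LA at 28 m and AL+LA>CR, 2 for AL from 12 to 28 m and CR>AL+LA, 3 for CR from 12 to 28 m and the interaction of 28 against 12 m, 5 for CR at 12 m and for the 10 and 7 groups without AL, and 8 for all 13 groups. Without TMM it was 0 for AL>CR, CR at 28 m, CR from 12 to 28 m, CR>AL+LA and CR>CR+LA, 1 for AL+LA at 12 m and CR at 12 m, and 5 for CR>AL. With pools 7 and 9 left out together, chosen after seeing the data, it was 0 for CR at 28 m, AL>CR and CR>CR+LA and 5 for CR>AL+LA. Leaving out the mitochondrial genes and Rn28s from TMM, or computing TMM over the compared libraries alone (also chosen after seeing the data), moved no count by more than 1.5 times. Leaving out 1 pool at a time gave 0 to 0 for AL from 6 to 12 m and from 6 to 28 m, CR from 6 to 12 m and from 6 to 28 m, AL+LA from 12 to 28 m, CR at 6 m, the interaction of 28 against 6 m and the 10 and 7 groups without AL. It gave 0 to 1 for AL from 12 to 28 m, CR at 28 m, AL+LA at 12 and 28 m, AL>CR, AL+LA>CR and CR>CR+LA, 0 to 2 for CR from 12 to 28 m, CR>AL and the interaction of 28 against 12 m, 0 to 5 for CR at 12 m, 1 to 3 for CR>AL+LA and 1 to 5 for all 13 groups. The count for CR at 12 m was 5 without pool 4, 0 without pool 5 or 14 and 1 without pool 13 or 15. That for CR from 12 to 28 m was 2 without pool 13, and that for CR>AL+LA was 3 without pool 9. The lowest count of any of the 10 genes in a library was 645 reads, and what limits the precision was not tested.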
